A study of Mus musculus with 7 samples.

Results

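Toll-like and NOD receptor signalling was followed here in mouse ovarian cancer cells with and without hairpins against Snail, as 34 genes listed by their place in the pathway: 5 cell surface receptors, 7 endosomal receptors, 3 co-receptors, 1 receptor chaperone, 4 adaptors, 4 IRAK kinases, 5 genes of the TRAF6-TAK1 complex, 2 inhibitors and 3 genes of the NOD arm. A gene was measured where a transcript cluster of the array carried that gene's symbol and no other, and 31 of the 34 genes were, each by 1 cluster. Irak1 shares its only cluster with microRNA genes, and Irak4 and Ripk2 name no cluster of the annotation used, so these 3 genes have no value as members. This matching by symbol uses no measured value, but the genes were listed with earlier results of these data known. The array table holds 65770 transcript clusters, of which 30473 carry a single symbol.

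The cells were HM-1, an established mouse ovarian cancer line grown in culture. The groups were HM-1 with the Snail hairpin sh1 (2 arrays), HM-1 with the Snail hairpin sh2 (2 arrays), together called shSnail (4 arrays), and HM-1 with a non-silencing hairpin, called control (3 arrays). All groups carried a lentiviral GIPZ vector, the labels name no ligand of these receptors as a treatment, and neither the labels nor the methods say that a hairpin was introduced more than once, so the arrays of a group may share 1 transduction. RNA was measured on Affymetrix mouse transcriptome arrays, whose values are log2 signals. The 19-base targets of the hairpins, which are what separates sh1 from sh2, are given as the labels spell them.
sh1 target: agtttattgatattcaata
sh2 target: tggttaatttatatactaa

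Toll-like receptors recognise microbial molecules, the bacterial ones mostly at the cell surface and the nucleic acids in endosomes. They recruit MyD88, which assembles the IRAK kinases, TRAF6 and the TAK1 kinase complex and so activates nuclear factor kappa B, or TRIF (the Ticam1 product), which leads to interferon genes as well. NOD1 and NOD2 sense fragments of bacterial cell wall in the cytosol and reach the same TAK1 complex through the kinase RIPK2. In epithelial tumour cells this machinery can drive chemokine and cytokine genes.

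The promoters of the members that passed a test are shown because Snail is a repressor that binds E-boxes and because kappa B sites are where this pathway acts. They are the RefSeq windows of 250 bases before and 50 after the start of transcription (assembly GRCm38.p6). In the Irak2 window, chr6:113638217-113638516 on the plus strand, the capitals mark its only E-box, CANNTG, which begins at -110 from the start and is not of the CAGGTG type that Snail prefers. In the Tlr3 window, chr8:45410331-45410630 on the minus strand, the capitals mark a match to the kappa B consensus that begins at -211, and no CANNTG was found.
Irak2 promoter: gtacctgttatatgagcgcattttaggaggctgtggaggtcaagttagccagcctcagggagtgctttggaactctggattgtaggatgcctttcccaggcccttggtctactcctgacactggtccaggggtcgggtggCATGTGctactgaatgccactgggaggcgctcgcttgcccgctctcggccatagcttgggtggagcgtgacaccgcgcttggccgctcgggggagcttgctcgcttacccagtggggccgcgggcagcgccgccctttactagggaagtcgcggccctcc
Tlr3 promoter: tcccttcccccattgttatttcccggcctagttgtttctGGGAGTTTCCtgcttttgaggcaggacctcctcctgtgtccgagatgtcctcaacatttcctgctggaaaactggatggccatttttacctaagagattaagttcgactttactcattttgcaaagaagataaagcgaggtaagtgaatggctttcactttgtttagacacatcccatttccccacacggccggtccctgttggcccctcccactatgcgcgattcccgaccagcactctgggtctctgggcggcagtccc

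The table of promoters held 31 windows of 24 listed genes. Searched on both strands, CAGGTG lay in 12.9% of these windows, against 20.2% of all 32851 windows, and the wider CANNTG, which includes CAGGTG, in 54.8%, against 72.3%. The kappa B consensus lay in 5 of the members' 31 windows (16.1%), against 8.5% of all. The 5 windows belong to 4 genes, Irak1, Map3k7, Tlr2 and Tlr3, since both overlapping windows of Irak1 hold a match. A match is a string of letters and not a binding site.

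The targeted gene gave no check of the labels. Snai1, which encodes Snail, read 6.80 and 6.55 in sh1, 6.69 and 6.77 in sh2, and 6.61, 6.69 and 6.70 log2 in control. The groups overlapped (log2 fold change 0.03 ± 0.07, limma adjusted p = 0.85). This cluster lies under the 95th percentile of the 5222 negative control probe sets, 7.97 log2. The same limit holds for Irak2 and Tlr3 below, whose means over all 7 arrays were lower still, at 6.01 and 5.71. A fall of Snai1 was thus not seen on these arrays, and the directions below are those of the labels. The negative controls themselves stood higher with the hairpins, with a median of 4.92 and 4.99 in sh1 and 5.12 and 5.20 in sh2, against 4.83, 4.85 and 4.86 in control, while the medians of the clusters lay between 4.51 and 4.56 on all 7 arrays. Of 11 measured leukocyte markers, which would mark the cells richest in these receptors, Ptprc, Adgre1, Csf1r and Itgam read 4.22 or lower on every array, below the negative controls' median of 4.94. In 3 of the 11 the mean over all 7 arrays exceeded the negative controls' 95th percentile: Cd68, at 7.54 to 8.01 in shSnail and 8.72 to 9.04 in control, Mrc1, a macrophage mannose receptor, with a mean of 7.97 in shSnail and 8.01 in control, and Ly6g, a neutrophil surface protein, at 8.25 to 8.58 in shSnail and 7.74 to 8.01 in control (0.52 ± 0.11, adjusted p = 0.17). The summed signal of the 11 was 9.83 to 9.99 log2 in shSnail and 10.01 to 10.22 log2 in control, and 1 of them passed the test, Cd68, a lysosomal protein (-1.14 ± 0.14, adjusted p = 0.046, and 0.056 to 0.17 without any 1 array). The part of these markers in the results below was not tested. Of 6 epithelial markers, the keratins Krt8 and Krt18 were over 16 log2 on every array and Krt19 read 15.49 to 15.85. Epcam and Cdh1 stayed at background, and Krt7, at 5.02 to 5.07, was under the negative controls' 95th percentile. The 3 measured fibroblast markers (4 listed), Col1a1, Dcn and Thy1, had group means of 4.71 or lower.

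**Figure D1:**
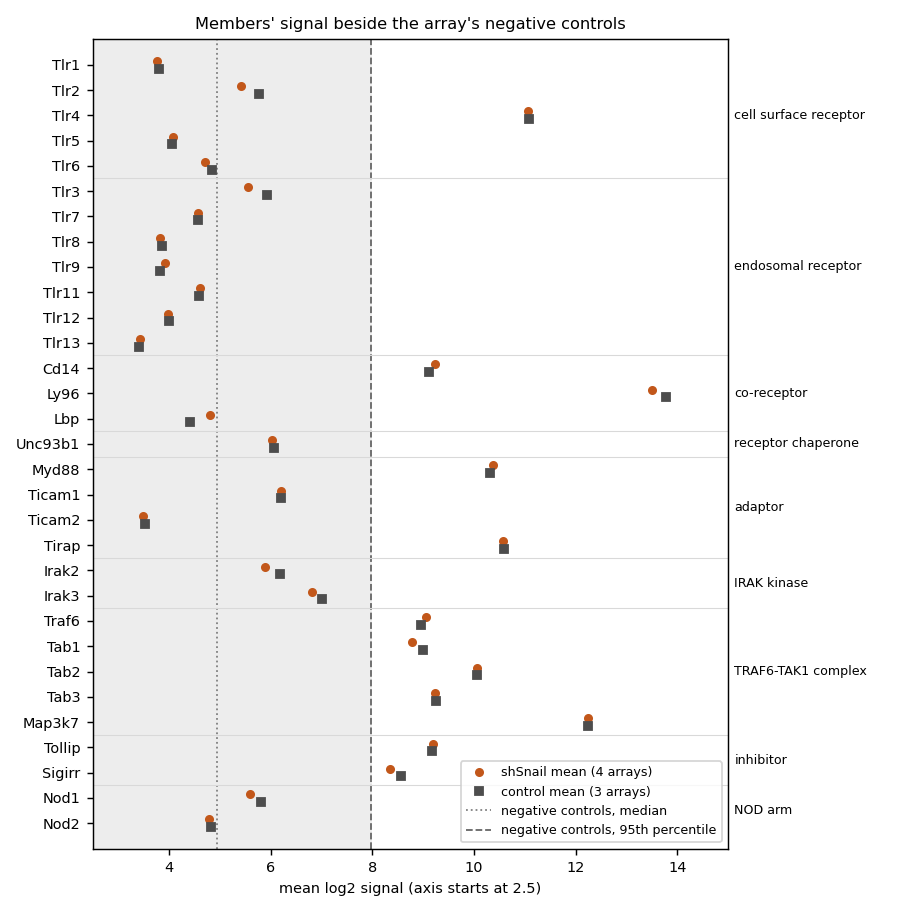
Mean log2 signal of the 31 measured members (horizontal axis) in shSnail (circles, 4 arrays) and control (squares, 3 arrays), grouped by role. The dotted and dashed lines are the median (4.94) and 95th percentile (7.97) of the negative controls, and 12 members lie to the right of the dashed line in both groups.

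HM-1 cells carried signal for a partial pathway. In both groups 12 members had a mean above the negative controls' 95th percentile, and the other 19 were under it in both. Above it were Tlr4, the receptor for lipopolysaccharide, with its partners Cd14 and Ly96, and the adaptors Myd88 and Tirap. Also above it were all 5 genes of the TRAF6-TAK1 complex (Traf6, Tab1, Tab2, Tab3 and Map3k7, which encodes TAK1) and the inhibitors Tollip and Sigirr. Of the 12 receptors, Tlr4 was the only one above that level, and both NOD receptors, both measured IRAK kinases, Unc93b1, Ticam1, Ticam2 and Lbp were under it. A mean under the 95th percentile does not show that a gene is silent, since probes differ in brightness. Sigirr was only narrowly above background: on the sh2 arrays it read 8.35 and 8.34. The negative controls' 95th percentile on those same arrays was 8.39 and 8.35, which Sigirr did not exceed.

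The signal of most of these genes differed little between shSnail and control cells. The log2 fold change of shSnail over control was under 0.1 in size in 19 of 31 members and over 1 in 0, and the largest was 0.38. Those under 0.1 include members below the negative controls' 95th percentile, such as Tlr7, Tlr8, Tlr13, Ticam1 and Nod2. A flat signal there does not show unchanged expression. By limma with Benjamini-Hochberg adjustment over all 65770 clusters, 1 member was lower (Irak2) and 0 were higher at an adjusted p under 0.05. That is 3.23% of the members lower, against 0.432% of all clusters lower and 0.21% higher. All members are clusters with 1 symbol, so shares of all clusters, here and below, are not a like-for-like comparison. In a test of only the 30473 clusters with 1 symbol, 347 were lower and 161 higher at an adjusted p under 0.05. At an unadjusted p under 0.05, 2018 of them were lower and 1737 higher. Without adjustment, 6 members were lower and 1 was higher at a p under 0.05, where 4.65% of all clusters were lower and 5.45% higher. The median log2 fold change was -0.02 over the members and 0 over all clusters, with 20 members below 0 and 10 above.

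In 7 members (22.6%) all 4 shSnail arrays read below all 3 control arrays, which held for 4.01% of all clusters. These were Irak2, Tlr3, Sigirr, Ly96, Tab1, Irak3 and Nod1. In 2 members (6.5%), Lbp and Traf6, all 4 shSnail arrays read above all 3 control arrays, which held for 5.08% of all clusters. Equal values on several arrays are common in this table: 22 of the 31 members have a tie, and Tlr7 reads 4.56 on all 7 arrays.

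**Figure D2:**
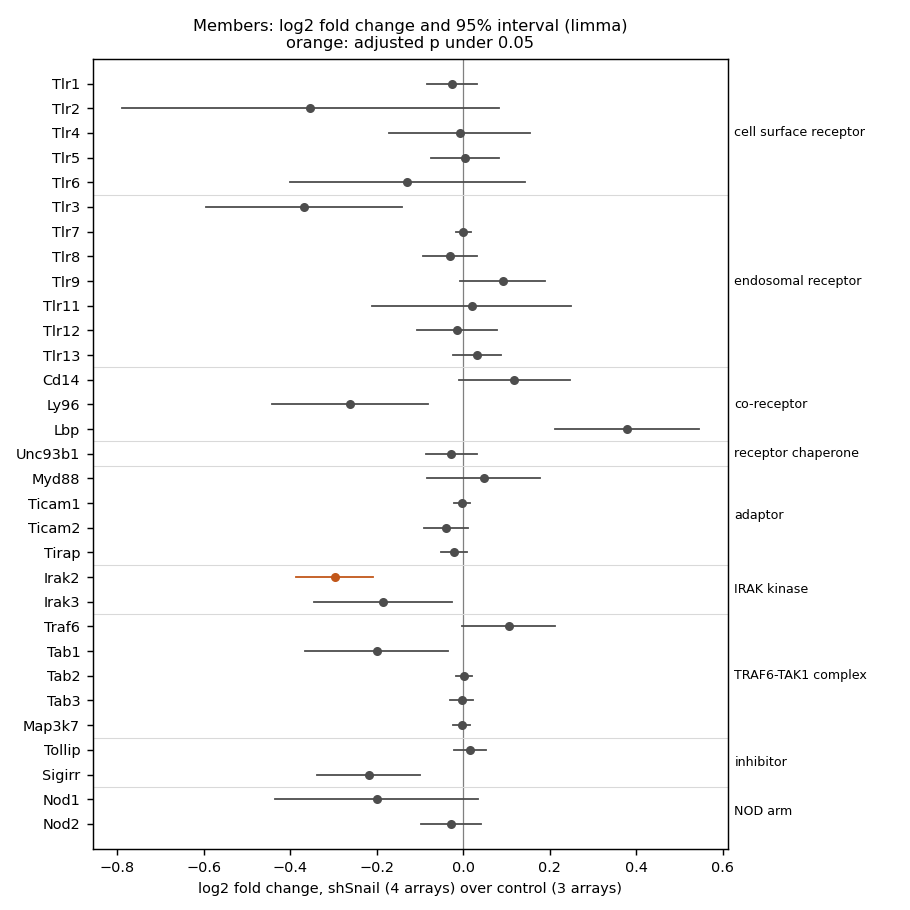
Log2 fold change of shSnail (4 arrays) over control (3 arrays) for each measured member, with its 95% interval from limma, grouped by role. Irak2, at -0.30, is the only member with an adjusted p under 0.05 (orange), and 19 members lie within 0.1 of 0.

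Among the cell surface receptors, Tlr4 did not separate the groups. It read 10.96 and 11.01 in sh1, 11.23 and 11.08 in sh2, and 11.08 on each control array. The shSnail values lie on both sides of control (-0.01 ± 0.07, 95% interval -0.17 to 0.16, adjusted p = 1). Tlr2, the receptor for bacterial lipoproteins, varied most of all members, with 5.65 and 5.39 in sh1, 5.58 and 5.05 in sh2, and 5.68, 6.01 and 5.62 in control. Its groups overlapped, through the first sh1 array, and the difference of -0.35 ± 0.18 did not pass (adjusted p = 0.58). Its partners Tlr1 and Tlr6, and the flagellin receptor Tlr5, had log2 fold changes of -0.03, -0.13 and 0.00, none past the test, at means of 3.78 to 4.76 log2.

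The endosomal receptor Tlr3, which binds double-stranded RNA, read lower on every shSnail array than on any control array. It read 5.66 and 5.70 in sh1, 5.45 and 5.37 in sh2, and 5.94, 5.95 and 5.86 in control. The 3 groups did not overlap, and the sh2 arrays were lowest. Over both hairpins together the difference was -0.37 ± 0.09 and did not pass the test (adjusted p = 0.24), whereas it did where sh1 and sh2 were fitted as separate groups and averaged (adjusted p = 0.036). All readings lie between the median and the 95th percentile of the negative controls. The other 6 endosomal receptors, Tlr7 and Tlr8 for single-stranded RNA, Tlr9 for unmethylated DNA, and the mouse receptors Tlr11, Tlr12 and Tlr13, had means of 3.42 to 4.60 log2 and log2 fold changes from -0.03 to 0.09, none past the test. Unc93b1, the chaperone that carries these receptors out of the endoplasmic reticulum, differed by -0.03 ± 0.02 (adjusted p = 0.66).

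The co-receptors of Tlr4 did not move together. Ly96, which encodes the lipopolysaccharide-binding MD-2, read 13.50 and 13.48 in sh1, 13.48 and 13.57 in sh2, and 13.64, 13.93 and 13.73 in control. All shSnail values were below all control values, by 0.07 at the closest, and the log2 fold change was -0.26 ± 0.07 (adjusted p = 0.31). Lbp, the serum protein that hands lipopolysaccharide to Cd14, ran the other way, with 4.79 and 4.92 in sh1, 4.78 and 4.71 in sh2, and 4.52, 4.42 and 4.32 in control. Its groups did not overlap, and its difference of 0.38 ± 0.07 was the largest of all members (adjusted p = 0.11). Every Lbp value was below the negative controls' median of 4.94, and the negative controls themselves were higher in shSnail than in control by a median of 0.18; their part in the Lbp difference was not tested. Cd14, which presents lipopolysaccharide to Tlr4, averaged 9.23 ± 0.05 in shSnail (SD, n = 4) and 9.11 ± 0.10 in control (SD, n = 3), with overlapping arrays (adjusted p = 0.53).

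**Figure D3:**
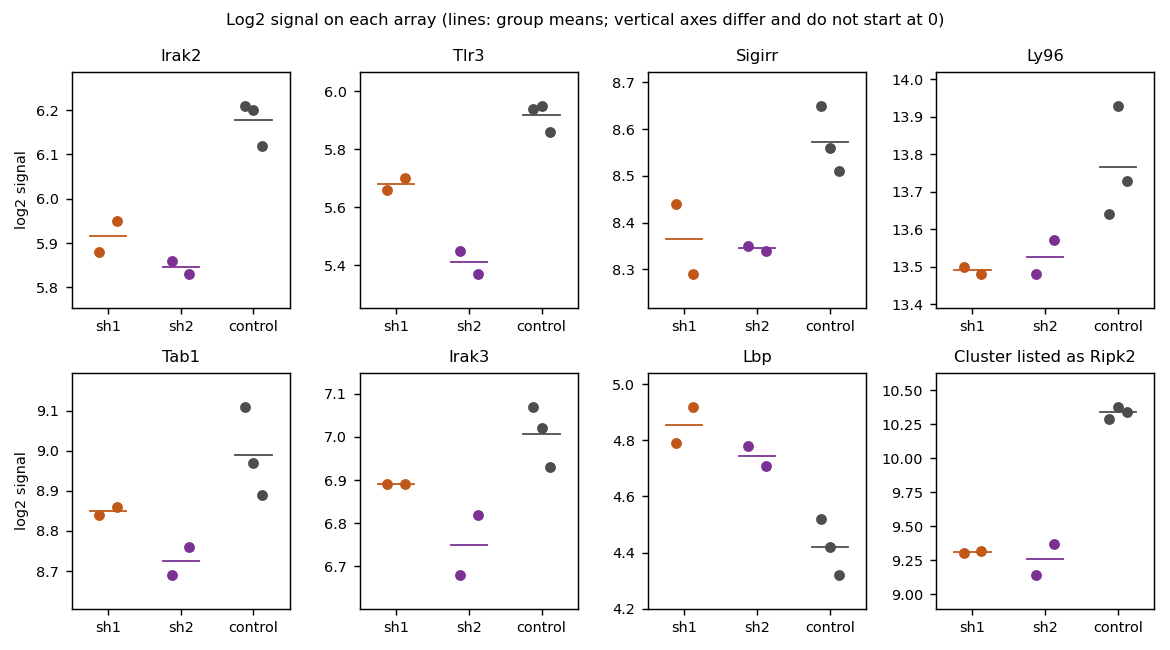
Log2 signal on each array (vertical axis, a separate scale for each panel) of the 7 members with an unadjusted p under 0.05 and of the cluster the study lists as Ripk2, in sh1, sh2 and control, with lines at the group means. The shSnail arrays lie below control in every panel except Lbp, where they lie above it.

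The adaptors differed little between the groups. Myd88, through which all but Tlr3 of these receptors can signal, averaged 10.37 ± 0.03 in shSnail (SD, n = 4) and 10.32 ± 0.11 in control (SD, n = 3), a difference of 0.05 with a 95% interval of -0.08 to 0.18. Tirap, which bridges Tlr2 and Tlr4 to Myd88, differed by -0.02 (95% interval -0.05 to 0.01). Ticam1 and Ticam2, the adaptors of the interferon branch, had log2 fold changes of 0.00 and -0.04. All 4 adaptors missed the test (adjusted p of 0.59 to 0.87).

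Irak2, a kinase-like member of the Myd88 complex that sustains signalling to TRAF6, was lower in shSnail cells. It read 5.88 and 5.95 in sh1, 5.86 and 5.83 in sh2, and 6.21, 6.20 and 6.12 in control. The 4 shSnail arrays lay within 0.11 of each other and all below the lowest control array. Group means were 5.88 ± 0.05 in shSnail (SD, n = 4) and 6.18 ± 0.05 in control (SD, n = 3), a log2 fold change of -0.30 ± 0.04 (95% interval -0.39 to -0.21, limma adjusted p = 0.041). The signal exceeded 75% of the negative controls, not their 95th percentile. The call was narrow: without any single array the adjusted p lay between 0.065 and 0.17, while the log2 fold change stayed between -0.33 and -0.28.

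Irak3, known as IRAK-M, which restrains the complex, had a smaller difference. It read 6.89 and 6.89 in sh1, 6.68 and 6.82 in sh2, and 7.07, 7.02 and 6.93 in control. The groups did not overlap, with a gap of 0.04 (-0.19 ± 0.06, adjusted p = 0.45). Of the 4 listed IRAK genes, only these 2 were measured.

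The TRAF6-TAK1 complex carried strong signal and mostly flat values. Tab1, the subunit that activates TAK1, read 8.84 and 8.86 in sh1, 8.69 and 8.76 in sh2, and 9.11, 8.97 and 8.89 in control. Its shSnail arrays were all lower, by 0.03 at the closest (-0.20 ± 0.07, adjusted p = 0.43). Traf6, the ubiquitin ligase that links the IRAK kinases to TAK1, read higher in all 4 shSnail arrays, at 9.01 to 9.17 against 8.93 to 8.99 in control (0.11 ± 0.04, adjusted p = 0.50). Map3k7 and the ubiquitin-binding subunits Tab2 and Tab3 differed by 0.00 each, with intervals no wider than -0.03 to 0.02; Map3k7 averaged 12.25 in both groups.

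Of the inhibitors, Sigirr, a receptor-like protein that dampens Toll-like and interleukin 1 receptor signalling, read 8.44 and 8.29 in sh1, 8.35 and 8.34 in sh2, and 8.65, 8.56 and 8.51 in control. The groups did not overlap, and the log2 fold change was -0.22 ± 0.05 (adjusted p = 0.19). Tollip, which binds IRAK kinases and Toll-like receptors, read 9.19 on all 4 shSnail arrays, against 9.14 to 9.19 in control.

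In the NOD arm, Nod1 read 5.68, 5.68, 5.68 and 5.38 in shSnail, against 5.82, 5.90 and 5.69 in control. The shSnail arrays were lower by as little as 0.01 (-0.20 ± 0.09, adjusted p = 0.56). Nod2, the muramyl dipeptide sensor, averaged 4.79 ± 0.05 in shSnail (SD, n = 4) and 4.82 ± 0.00 in control (SD, n = 3), with a difference of -0.03 (adjusted p = 0.71).

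The kinase downstream of both, Ripk2, can be followed only through a transcript cluster that the study lists under that name and the annotation leaves without a symbol. That cluster read 9.30 and 9.32 in sh1, 9.14 and 9.37 in sh2, and 10.29, 10.38 and 10.34 in control. The difference was -1.05 ± 0.06 (adjusted p = 0.0058), a larger change than that of any of the 31 members, and each hairpin's own difference was of that size (sh1 -1.03, adjusted p = 0.047; sh2 -1.08, adjusted p = 0.027). The calls by hairpin passed in only 6 of 13 other settings with sh1 (adjusted p of 0.0093 to 0.33) and in 7 of 13 with sh2 (0.0053 to 0.13). The study picked the cluster from these same arrays as a lower gene, so its fall is no independent evidence, and it is not counted among the members.

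**Figure D4:**
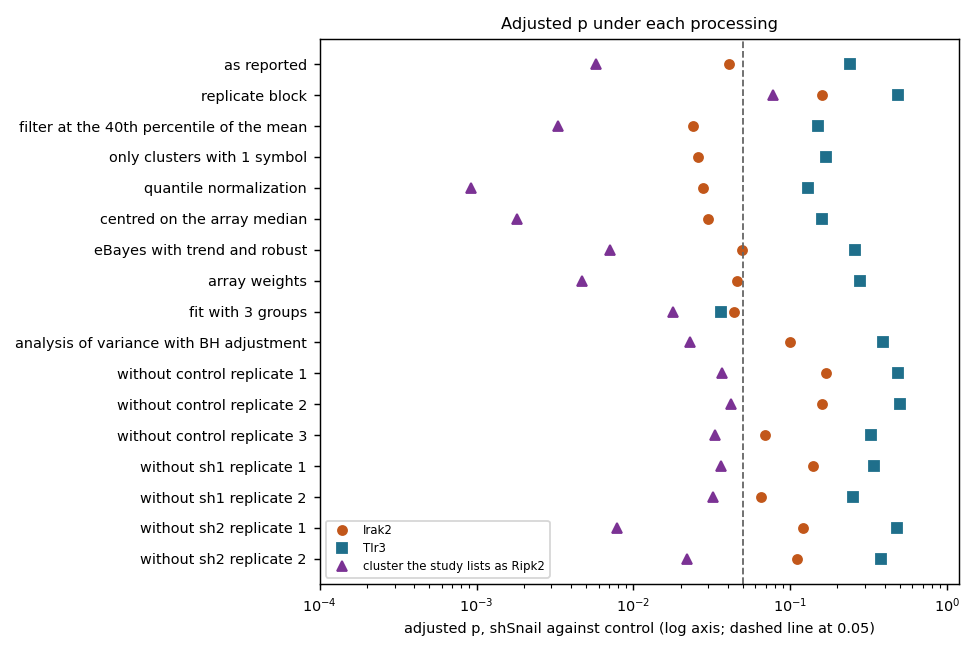
Adjusted p for shSnail against control (horizontal, log axis, dashed line at 0.05) of Irak2, Tlr3 and the cluster listed as Ripk2 under each processing, with rows for the result as reported, other settings and each array left out. Irak2 is at 0.041 as reported and between 0.065 and 0.17 when an array is left out.

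The hairpins were then set against control separately, in 1 fit of all 7 arrays as 3 groups. Both comparisons use the same 3 control arrays. With sh1, 0 of 31 members passed in either direction, where 0.0821% of all clusters were lower and 0.0517% higher. Without adjustment, 4 members were lower and 2 higher with sh1 at p under 0.05, where 2254 of all 65770 clusters were lower and 2570 higher. With sh2, 6 members were lower and 3 higher without adjustment, where 2772 of all 65770 clusters were lower and 4262 higher. After adjustment, 2 members were lower with sh2, Tlr3 and Irak2, and 0 were higher, where 0.477% of all clusters were lower and 0.809% higher. Those shares stand for 314 clusters lower and 532 higher with sh2, against 729 and 720 after quantile normalization, 89 and 103 with array weights, 5 and 3 without control replicate 1, and 1881 and 1744 without sh2 replicate 1. Tlr3 differed by -0.23 ± 0.04 with sh1 (adjusted p = 0.20) and by -0.50 ± 0.04 with sh2 (adjusted p = 0.030). Irak2 differed by -0.26 ± 0.04 with sh1 (adjusted p = 0.14) and by -0.33 ± 0.04 with sh2 (adjusted p = 0.040). The sh2 calls also depended on the arrays: array weights left 0 of them, and leaving out 1 array gave 0 to 2.

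Between the hairpins themselves, 0 members and 0% of all clusters passed in limma. At an unadjusted p under 0.05, 2 members were lower in sh2 than in sh1 and 1 was higher, where 1487 of all 65770 clusters were lower and 2463 higher. Tlr3 had the smallest p of the members, with sh2 below sh1 by -0.27 ± 0.04 (95% interval -0.38 to -0.15, adjusted p = 0.37). The interval for Irak2 ran from -0.18 to 0.04, and that for Tlr4 from 0.03 to 0.31 (adjusted p = 0.68). A difference between the hairpins in the effect on Irak2 or Tlr3 was not established by this test.

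**Figure D5:**
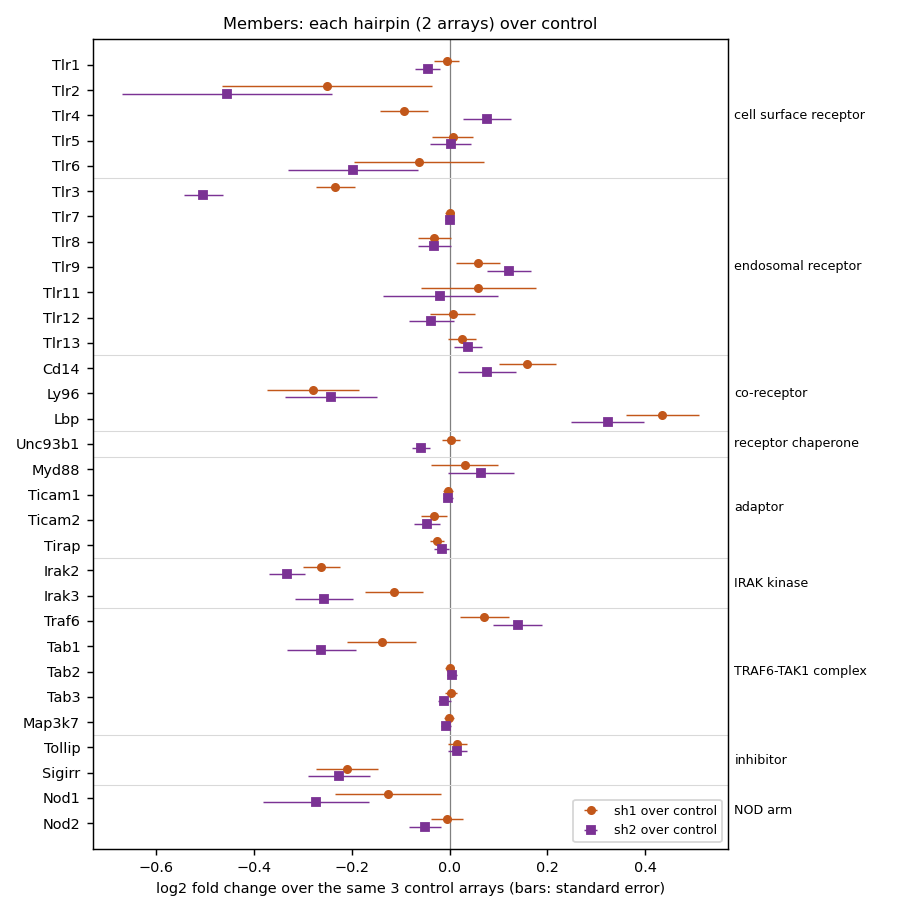
Log2 fold change of sh1 (circles, 2 arrays) and sh2 (squares, 2 arrays) over the same 3 control arrays, with standard errors, for each measured member by role. Tlr3 is at -0.23 with sh1 and -0.50 with sh2, and Irak2 at -0.26 and -0.33.

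Genes around the members were read as lists. Their counts are set beside the 0.432% of all clusters that were lower and 0.21% that were higher. These shares are no measure of chance here, since the lists were chosen with earlier results of these data known. Of 18 further inhibitors of Toll-like receptor signalling, all measured, 4 fell in shSnail and 0 rose: Zc3h12a, an RNase that degrades cytokine messages (-1.62 ± 0.14, adjusted p = 0.015), Tnfaip3, the ubiquitin-editing enzyme A20 (-1.43 ± 0.14, adjusted p = 0.022), and the A20-binding proteins Tnip1 (-1.36 ± 0.09, adjusted p = 0.0088) and Tnip3 (-1.33 ± 0.14, adjusted p = 0.026). The genes of all 4 are also induced by nuclear factor kappa B in many cells. The study's own list of lower genes, drawn from these same arrays, holds the clusters of all 4, so their fall is no independent evidence. With sh1, 1 of the 18 passed (Zc3h12a), with sh2, 2 (Zc3h12a and Tnip1), and without any 1 array 0 to 3 passed in shSnail. The median of the 18 was -0.05 and Cyld, another deubiquitinase, differed by -0.18 (adjusted p = 0.14).

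In the adaptor complexes, 1 of 13 measured ubiquitin ligases and kinases (16 listed) fell, Ikbke. This kinase of the interferon branch read 7.75 and 7.80 in sh1, 7.70 and 7.84 in sh2, and 10.07, 10.15 and 9.84 in control, with no overlap (-2.25 ± 0.08, adjusted p = 0.0021). It too is on the study's list from these arrays, and it passed in all 16 other settings run for it and with each hairpin (sh1 adjusted p = 0.030, sh2 adjusted p = 0.020). Its close relative Tbk1 read 11.02 to 11.07 in shSnail and 11.07 to 11.09 in control (-0.02, adjusted p = 0.67). Of the 6 interferon regulatory factors, 0 passed in either direction.

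Of 14 partners of the NOD pathway, all measured, 1 fell, Birc3, the ubiquitin ligase cIAP2 that modifies RIPK2 (-0.62 ± 0.04, adjusted p = 0.0088, and 0.021 to 0.054 without any 1 array), while Xiap, which does so too, read 10.05 on all 7 arrays. Of 18 measured NLR sensors and inflammasome genes (20 listed), 1 fell, Gsdmd, the pore-forming protein of pyroptosis, which read 9.08 and 9.12 in sh1, 8.94 and 9.27 in sh2, and 9.95, 9.96 and 10.00 in control (-0.87 ± 0.08, adjusted p = 0.017, and 0.022 to 0.090 without any 1 array). Casp4, the intracellular sensor of lipopolysaccharide (Casp11 in older mouse usage), differed by -0.55 ± 0.09 and did not pass (adjusted p = 0.089). Of 15 genes for receptor folding and trafficking, all measured, 1 fell, Rab7b, a GTPase of the endosome (-0.48 ± 0.05, adjusted p = 0.034, and 0.056 to 0.14 without any 1 array).

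Of the 10 cytosolic nucleic acid sensors, 1 rose, the RNA helicase Ddx3x (0.20 ± 0.03, adjusted p = 0.048, and 0.061 to 0.18 without any 1 array), and 0 fell. Of 12 measured genes of the interleukin 1 family and its receptors (13 listed), which share Myd88 and the IRAK kinases, 0 passed, with Il1rn, the receptor antagonist, at 0.69 ± 0.17 (adjusted p = 0.22) and Il1rap, the shared receptor chain, at -0.62 ± 0.12 (adjusted p = 0.13). Of 10 measured carriers of ligands and danger signals (11 listed), 0 passed in shSnail. With sh2 alone 1 was higher, Tnc, the matrix protein tenascin-C (sh2 0.46 ± 0.04, adjusted p = 0.030; sh1 0.31 ± 0.04, adjusted p = 0.093; shSnail 0.38 ± 0.06, adjusted p = 0.069). The median log2 fold change of each of these 9 lists lay between -0.05 and 0.02.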

How the data were processed

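The deposited series table holds the authors' log2 signals, 1 column per array for 7 arrays, made per the labels with Affymetrix Expression Console. The sources used here do not give the software version, background correction or probe summary. Values ran from 1.70 to 19.06, and 0 value columns were left unused. Control probe sets (6918 of 72688 entries) were left out of the tests of clusters, and the negative ones served as the background. No counts lie behind these values, and the number of arrays limits the precision. Symbols came from the platform's annotation. It gave 1 symbol to 30473 clusters, several to 2176 and none to 33121, and RefSeq changed 0 of the single symbols.

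The log2 values were tested as deposited in R 4.3.3 by limma 3.58.1 (lmFit, eBayes). P-values were adjusted over 65770 clusters by Benjamini and Hochberg, with a call at an adjusted p under 0.05; errors after ± are standard errors unless given as SD. Main comparison: shSnail (4 arrays) against control (3 arrays). Each hairpin was tested in a fit with 3 groups. The labels call the samples biological replicates but do not tie them to separate transductions, so p-values measure the spread between these samples. Deviations from the group means correlated at -0.21 to 0.16 between samples of the same replicate number. Each hairpin has 2 arrays, whose deviations mirror each other, so these values cannot decide whether replicate numbers mark a batch. The main fit used no block, and a fit with a block is among the alternatives. The script was tested on simulated data, with independent normal noise of each cluster's own residual spread and no ties. For the comparisons with control, both hairpins were given the same change. The changed clusters were drawn from those with a mean above the median of all clusters. The rates that follow may therefore not hold for members below that median or with ties. Of 200 clusters changed by 0.3 log2, 23.5% were recovered in shSnail against control and 10% with sh1 or with sh2. At a change of 1 log2 the shares were 83.5% in shSnail, 65% with sh1 and 62.5% with sh2. Missing the test therefore does not by itself exclude a change of about 0.3. The members and the other gene lists were chosen with earlier results of these data known. All 34 members were eligible to be named, with each array's value for those past a test or with an unadjusted p under 0.05 in shSnail; Tlr4, Tlr2, Nod1, Ikbke and Gsdmd were given in full, and Casp4, Cyld, Tbk1, Xiap, Tnc, Mrc1, Ly6g, Il1rn and Il1rap were named, after their values were seen. The alternatives were a replicate block, dropping clusters whose mean was under the 40th percentile, clusters with 1 symbol, quantile normalization, centring, another variance model, array weights, a 3-group fit, analysis of variance (the test of the study's methods) and leaving out each array.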

Additional observations from a re-analysis of the deposited data

Results flagged for a closer look

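Within the 4 shSnail arrays, the gap between the most extreme array and its neighbour took up more than 0.829 of the whole range in 7 of 31 members. Chance alone flags about 1 in 20 groups of normally distributed values without ties. Equal values on the other arrays set most of these ratios, and 79.87% of all clusters have a tie. The rate over all clusters was not computed, so whether 7 of 31 is unusual for this table cannot be told. The share was 1 for Tlr1, Ticam2, Tab2, Map3k7 and Nod1, 0.995 for Myd88 and 0.88 for Traf6. In Nod1 the second sh2 array stood apart, at 5.38 log2 where the other 3 read 5.68. In Traf6 the same array was high, at 9.17 where the other 3 read 9.01 to 9.03. In the other 5 members the 4 shSnail arrays spanned less than 0.1 log2.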

How the results depend on the processing

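Of the 31 members, 1 was lower in shSnail. The count was 0 with a replicate block, 0 by analysis of variance with Benjamini-Hochberg adjustment, 0 by analysis of variance at the study's threshold (unadjusted p under 0.0005 with over 2-fold), 2 in the fit with 3 groups, where Tlr3 joined Irak2, and 0 without any single array. For Irak2 the adjusted p was 0.16 with the block, 0.10 by analysis of variance, and 0.024 to 0.049 in the other settings with all arrays. Lbp, Sigirr, Ly96, Tab1 and Irak3 passed in 0 of 16 settings. With sh2, the 2 lower members became 0 with the replicate block and 0 with array weights. Leaving out 1 array gave 0 to 2, with 0 without control replicate 1, control replicate 2, sh1 replicate 1 or sh1 replicate 2, and 1 without sh2 replicate 2. With sh1, leaving out 1 array gave 0 to 1 member higher, and between the hairpins 0 to 1 called, in both cases 1 without sh1 replicate 2. Where an sh1 or sh2 array is left out, the lone array of that hairpin is assumed to vary like the others. The cluster listed as Ripk2 had an adjusted p of 0.078 with the replicate block and passed in 14 of 15 settings. The cause of these changes was not tested. Over all clusters, the block gave 8 lower and 0 higher in shSnail, against 284 and 138 without it, and quantile normalization gave 592 and 254. Whether replicate numbers pair the samples could not be decided from their deviations. Scaling turned the sign of Map3k7, Tollip, Tab3, Tab2 and Ticam1, all under 0.05 in size. Among the 7 members of the by-array plot, the cluster listed as Ripk2 and the 10 other genes called in shSnail, no sign turned in the settings run. Of those 10 genes, Ikbke passed with the replicate block (adjusted p = 0.0045) and 9 did not (0.067 to 0.20), and Rab7b, Ddx3x and Cd68 lost the call without any 1 array. Averaging several clusters of a gene could not be tried, since each member has 1. Signals under the negative controls' 95th percentile, in 19 members, limit what a small difference there can show.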
